A study of Mus musculus with 6 samples.

Results

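Expression of the semaphorin ligands, their plexin and neuropilin receptors and the plexin domain containing genes was compared between 2 cell populations of the mouse brain. The members were all genes measured by a probe set of their own whose symbol names a semaphorin (Sema), plexin (Plxn), neuropilin (Nrp) or plexin domain containing (Plxdc) gene. These were 33 of 19938 genes measured: 20 semaphorins, 9 plexins, 2 neuropilins and 2 Plxdc genes. All 33 RefSeq symbols of this form were present. For genes with several probe sets, the brightest on average over all 6 arrays stood for the gene. The study sorted green (GFP+) cortical neural progenitors and red (RFP+) neuronal progeny from brains of C57BL/6J mice that carried both reporters, by flow sorting on the 2 colours. Total RNA of 3 GFP+ samples and 3 RFP+ samples was hybridised to Affymetrix whole-transcript arrays, 1 array a sample. The animals' age, the promoters behind both reporters and the origin of the replicates are not stated in the labels, so p-values measure the spread between these samples only. Per the labels the GFP+ cells are cortical, while for the RFP+ cells the tissue is the brain with no region named, and region and cell type cannot be told apart.

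Semaphorins are guidance proteins that share a sema domain. Class 3 members are secreted, classes 4 to 6 cross the membrane and Sema7a is held by a lipid anchor. Plexins are the signalling receptors and act on small GTPases through a domain inside the cell. Neuropilins bind most class 3 semaphorins and signal by pairing with a plexin. In the developing cortex these genes are known for steering axons and dendrites, for placing migrating neurons and for shaping blood vessels.

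The populations carried the markers of their labels. All 9 radial glia markers were higher in GFP+ progenitors (Pax6 log2 difference 2.33, Sox2 1.88), and all 9 neuronal markers were higher in RFP+ neurons (Tbr1 -2.15, Tubb3 -0.93). Summed neuronal marker intensity was 24137 to 28392 in the GFP+ arrays, against 63322 to 68785 in the RFP+ arrays. Markers of other cells also differed. All 12 endothelial markers, 6 of 8 mural cell markers and all 6 oligodendrocyte precursor markers were higher in GFP+ progenitors, and 5 of 6 Cajal-Retzius markers were higher in RFP+ neurons. Of the other lists, 3 of 6 meningeal fibroblast markers and 2 of 8 inhibitory neuron markers were higher in GFP+ progenitors. The rest of both lists did not pass. Beside these counts, 30% of all genes passed, 13.8% higher in GFP+ and 16.2% higher in RFP+. Of 10 microglia and macrophage markers 1 passed, Trem2, higher in RFP+ neurons, and no marker of any list was at 0. Array medians were 210.31 to 221.1. The 95th percentile of 1015 olfactory receptor genes, taken here as a mark of near-background signal and called the olfactory receptor guide, was 211.3 for GFP+ means and 206.3 for RFP+ means. Both means of Trem2, 106.7 in the GFP+ arrays and 190.1 in the RFP+ arrays, were under this guide.

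Most of the family differed between the populations, more members being higher in neurons than in progenitors. Of the 33 members, 8 were higher in GFP+ progenitors, 17 were higher in RFP+ neurons and 8 did not pass the test. The 25 that passed are 75.8% of the members, beside 30% of all genes tested (13.8% higher in GFP+, 16.2% higher in RFP+). The median log2 difference, GFP+ minus RFP+, was -0.58 over the members and -0.08 over all genes. The test was limma on log2(intensity + 16), two-sided, with adjusted p-values over all genes and a threshold of 0.05. Differences carry their standard error (n = 3 arrays a group). Folds are 2 raised to this difference, so those of dim genes come out smaller than the ratio of intensities. In these bulk samples fewer cells of a type and less RNA per cell cannot be told apart. The arrays of the groups did not overlap for 26 of the 33 members, beside 43.9% of all genes. Of the members, 15 passed and differed at least 2-fold, 3 of them higher in GFP+ and 12 higher in RFP+, beside 13.0% of all genes. The GFP+ side was the less firm: without RFP+ replicate 1, 2 or 3, 5 members each time passed as higher in GFP+ in place of 8.

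**Figure D1:**
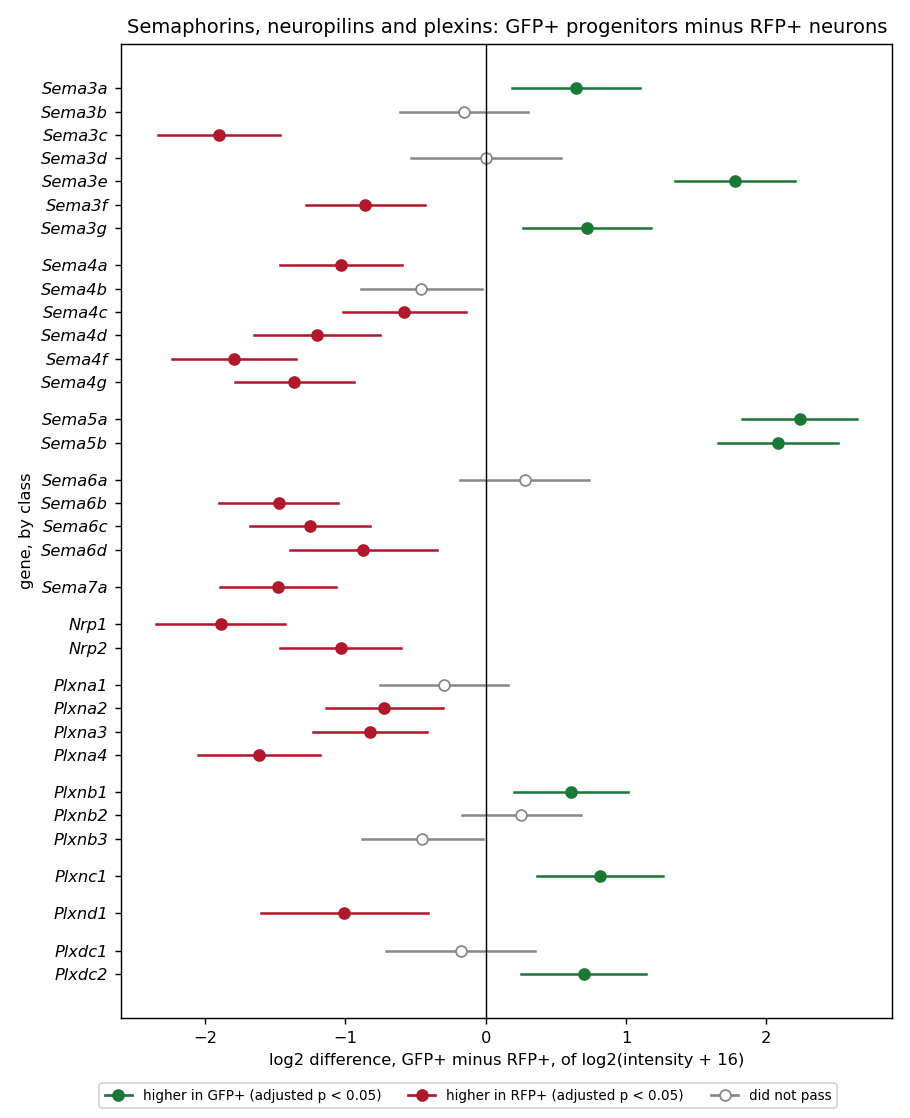
Log2 difference of each of the 33 members, GFP+ minus RFP+ (x axis, log2(intensity + 16) scale), by class of gene (y axis). Points are limma estimates and lines 95% confidence intervals; filled points passed an adjusted p of 0.05. Both class 5 semaphorins lie far to the GFP+ side, while the class 4 semaphorins, the neuropilins and the plexin A genes lie to the RFP+ side.

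RefSeq promoter windows, from 250 bases before to 50 bases after a gene's start, were used for 26 of the members. The other members were left out of the window counts. The start is the one the window table uses: it was the gene's outermost annotated base for Sema5a, Sema3e, Sema3c and Sema4f, and lay further downstream for Sema5b and Nrp1. The windows of the 3 members with the largest difference in each direction among those with 1 window are printed, since these genes separate the populations most. Capitals mark E-boxes (CANNTG, a motif of basic helix-loop-helix factors) and GC boxes (GGGCGG), searched on both strands, so that a GC box on the other strand reads CCGCCC. Coordinates are those of GRCm38.p6.
Sema5a, higher in GFP+, chr15:32244563-32244862, plus strand: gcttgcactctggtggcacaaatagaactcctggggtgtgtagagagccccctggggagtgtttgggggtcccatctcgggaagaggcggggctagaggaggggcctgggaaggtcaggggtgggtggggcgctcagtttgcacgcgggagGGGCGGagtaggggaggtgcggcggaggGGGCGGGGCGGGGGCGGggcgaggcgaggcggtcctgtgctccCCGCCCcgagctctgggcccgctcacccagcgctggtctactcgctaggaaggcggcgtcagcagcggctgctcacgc
Sema5b, higher in GFP+, chr16:35541112-35541411, plus strand: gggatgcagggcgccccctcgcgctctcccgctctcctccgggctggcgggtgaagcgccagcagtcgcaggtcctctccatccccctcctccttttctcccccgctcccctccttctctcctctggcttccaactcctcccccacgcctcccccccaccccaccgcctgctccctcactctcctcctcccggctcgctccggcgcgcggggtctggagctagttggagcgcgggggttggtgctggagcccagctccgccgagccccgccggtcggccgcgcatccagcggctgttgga
Sema3e, higher in GFP+, chr5:14025026-14025325, plus strand: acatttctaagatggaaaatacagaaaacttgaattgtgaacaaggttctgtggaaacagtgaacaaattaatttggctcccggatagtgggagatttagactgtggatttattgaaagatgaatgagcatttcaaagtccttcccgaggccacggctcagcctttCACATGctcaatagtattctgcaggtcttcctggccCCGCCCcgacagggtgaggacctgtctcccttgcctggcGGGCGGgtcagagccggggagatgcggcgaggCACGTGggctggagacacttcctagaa
Sema3c, higher in RFP+, chr5:17574566-17574865, plus strand: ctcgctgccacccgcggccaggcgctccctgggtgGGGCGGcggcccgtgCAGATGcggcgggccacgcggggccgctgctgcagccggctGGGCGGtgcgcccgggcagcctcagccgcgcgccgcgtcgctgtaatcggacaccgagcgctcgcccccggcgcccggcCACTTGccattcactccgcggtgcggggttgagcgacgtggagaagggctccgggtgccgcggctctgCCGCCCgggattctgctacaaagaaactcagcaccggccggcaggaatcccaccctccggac
Nrp1, higher in RFP+, chr8:128358823-128359122, plus strand: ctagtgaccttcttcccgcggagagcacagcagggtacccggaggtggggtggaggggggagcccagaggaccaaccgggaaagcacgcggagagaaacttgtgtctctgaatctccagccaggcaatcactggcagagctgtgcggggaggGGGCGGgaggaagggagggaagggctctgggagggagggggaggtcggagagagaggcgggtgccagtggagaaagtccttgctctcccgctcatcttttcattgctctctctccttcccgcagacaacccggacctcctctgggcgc
Sema4f, higher in RFP+, chr6:82939720-82940019, minus strand: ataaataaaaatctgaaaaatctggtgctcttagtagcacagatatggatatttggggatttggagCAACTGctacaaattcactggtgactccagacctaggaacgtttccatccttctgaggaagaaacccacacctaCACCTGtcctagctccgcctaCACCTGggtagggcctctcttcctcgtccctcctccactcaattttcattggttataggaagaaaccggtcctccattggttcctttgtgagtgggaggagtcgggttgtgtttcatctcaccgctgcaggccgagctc
The window of Sema5a held 5 GC boxes, some of them overlapping, and 0 E-boxes, while that of Sema5b held neither motif. Sema3e and Sema3c had 2 E-boxes each, Sema4f had 3 and Nrp1 had 0. Over the 37 windows of the 26 genes, 56.8% held an E-box and 73% a GC box, beside 72.3% and 35.7% of all 32851 windows. The median GC content was 63.7% for the members' windows and 52.7% for all windows, and its part in these shares was not tested. By direction, 4 of 7 windows of members higher in GFP+ held an E-box, against 13 of 24 windows of members higher in RFP+. These are matches of letters in short windows, and binding was not measured.

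The class 5 semaphorins were the members most raised in progenitors. Both encode membrane proteins with thrombospondin repeats, which in the mouse retina bind plexins A1 and A3 and repel neurites. Sema5a had an intensity of 3907, 3814 and 4044 in the GFP+ arrays, against 763, 898 and 799 in the RFP+ arrays. Sema5b had 2041, 2131 and 1779.8 in the GFP+ arrays, against 403, 536 and 436 in the RFP+ arrays. For both genes every GFP+ array lay far above every RFP+ array, and arrays of 1 group lay close together. Sema5a was 4.72-fold higher in GFP+ progenitors (a difference of 2.24 ± 0.20 log2 units, adjusted p = 3.84e-08) and Sema5b 4.23-fold higher (2.08 ± 0.20, adjusted p = 1.47e-07).

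The secreted class 3 semaphorins went both ways: 3 of 7 were higher in progenitors, 2 were higher in neurons and 2 did not pass. Sema3e, a ligand that binds Plxnd1 without a neuropilin, measured 448, 370.5 and 409.8 in the GFP+ arrays, against 123, 113 and 89.7 in the RFP+ arrays, which lay under the olfactory receptor guide. It was 3.42-fold higher in GFP+ progenitors (a difference of 1.77 ± 0.20 log2 units, adjusted p = 1.09e-06). Sema3c, which in mouse attracts callosal axons, showed the reverse. Its intensity was 279, 419 and 365 in the GFP+ arrays and 1379, 1261 and 1414 in the RFP+ arrays, 3.73-fold higher in RFP+ neurons (-1.90 ± 0.21, adjusted p = 6.02e-07). The groups were apart for both genes, and for Sema3c the 3 RFP+ values were within a narrow range. Sema3f, a repellent that acts through Nrp2, gave 734, 983 and 833 in the GFP+ arrays and 1643, 1471 and 1519 in the RFP+ arrays. It was 1.81-fold higher in RFP+ neurons (-0.86 ± 0.20, adjusted p = 0.00275).

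Sema3a, which repels cortical axons and attracts apical dendrites, was moderately higher in progenitors. The GFP+ arrays read 1229.7, 961 and 1544 and the RFP+ arrays 766, 684 and 892, with no overlap but a wide spread among the GFP+ arrays (1.56-fold, log2 difference 0.64 ± 0.22, adjusted p = 0.0314). The Sema3a call was lost when 1 of 4 arrays was left out: adjusted p = 0.0644 without GFP+ replicate 1, 0.125 without GFP+ replicate 3, 0.0876 without RFP+ replicate 1 and 0.12 without RFP+ replicate 2. It was lost too with log2(intensity + 1), at 0.0569. Sema3g, known from arterial endothelium, read 152, 127 and 222 in the GFP+ arrays and 95.02, 84.3 and 98.7 in the RFP+ arrays, with both group means under the olfactory receptor guide. The difference was 0.72 ± 0.22 on the log2 scale, higher in GFP+ progenitors (adjusted p = 0.017), and the call was lost without GFP+ replicate 3 (adjusted p = 0.0871) or RFP+ replicate 2 (0.0646). Summed endothelial markers were 2605, 6194 and 8173 in the GFP+ arrays, against 961, 1017 and 1228 in the RFP+ arrays, and their part in the Sema3g difference was not tested. Sema3b, with 172, 183 and 235 in the GFP+ arrays and 288, 193 and 189 in the RFP+ arrays, did not pass (log2 difference -0.16, 95% interval -0.61 to 0.30). Sema3d, with 139.6, 124 and 88.2 in the GFP+ arrays and 85.2, 92.4 and 189 in the RFP+ arrays, did not pass either (0.0036, 95% interval -0.53 to 0.54). The mean of Sema3d was under the olfactory receptor guide in both groups, and for both genes the groups overlapped.

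Members that lie near each other in the genome did not all share a direction. By RefSeq's gene order, Sema3d, Sema3a, Sema3e and Sema3c follow each other on chromosome 5, with 0, 3 and 15 other protein-coding genes between them. Of this row Sema3a and Sema3e were higher in GFP+ progenitors, Sema3c was higher in RFP+ neurons, and Sema3d did not pass. On chromosome 9, 3 protein-coding genes lie between Sema3b, which did not pass, and Sema3f, which was higher in RFP+ neurons.

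Class 4 semaphorins, membrane ligands mostly of B-type plexins, lay on the neuronal side throughout. For all 6 the RFP+ arrays lay above the GFP+ arrays, and 5 passed the test. Sema4f had 101, 151 and 157 in the GFP+ arrays, against 464, 534 and 518 in the RFP+ arrays, so that its GFP+ level was under the olfactory receptor guide and its RFP+ level was above it. Sema4f was 3.47-fold higher in RFP+ neurons (log2 difference -1.79 ± 0.21, adjusted p = 1.56e-06). Sema4g, which with Sema4c acts on Plxnb2 in the mouse cerebellum, had 997, 853 and 888 in the GFP+ arrays and 2262, 2129.8 and 2770.2 in the RFP+ arrays. It was 2.58-fold higher in RFP+ neurons (-1.37 ± 0.20, adjusted p = 2.62e-05).

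Sema4d, a ligand of Plxnb1 also known as CD100 from lymphocytes, had 369.6, 357 and 529 in the GFP+ arrays and 890.4, 1124 and 904 in the RFP+ arrays (2.30-fold higher in RFP+ neurons, adjusted p = 0.000212). A second, dimmer probe set of Sema4d went the same way, with 94.7, 103 and 41.4 in the GFP+ arrays, 282, 399 and 313 in the RFP+ arrays and a log2 difference of -1.92 against -1.20 for the one used. Sema4a, known from immune cells and the retina, lay under the olfactory receptor guide in GFP+ progenitors and measured 132, 166 and 114 in the GFP+ arrays and 341, 271 and 276 in the RFP+ arrays (2.05-fold higher in RFP+ neurons, adjusted p = 0.000726). Sema4c differed less, at 1676, 1186 and 1448 in the GFP+ arrays and 2110.5, 1861 and 2475 in the RFP+ arrays (1.49-fold higher in RFP+ neurons, adjusted p = 0.0439). Its call was lost with quantile normalization (adjusted p = 0.0676), with log2(intensity + 1) (0.0673) and without GFP+ replicate 2 (0.149), GFP+ replicate 3 (0.0638), RFP+ replicate 1 (0.105) or RFP+ replicate 3 (0.166). Sema4b missed the threshold at 661, 746 and 564 in the GFP+ arrays and 876, 1055 and 799 in the RFP+ arrays (log2 difference -0.46 ± 0.21, adjusted p = 0.102). With the replicate number as a block it passed (adjusted p = 0.0403).

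Among the class 6 semaphorins, membrane ligands of A-type plexins, 3 of 4 were higher in neurons. Sema6b, a ligand of Plxna4, had 390.3, 455 and 415 in the GFP+ arrays, against 1121, 1399 and 1091 in the RFP+ arrays (2.78-fold higher in RFP+ neurons, log2 difference -1.48 ± 0.20, adjusted p = 9.9e-06). The table lists a second probe set of Sema6b with identical values on all 6 arrays, which adds no measurement. Sema6c had 920.1, 1180.2 and 975 in the GFP+ arrays and 2656, 2623 and 2108 in the RFP+ arrays (2.38-fold higher in RFP+ neurons, adjusted p = 8.36e-05). For Sema6b and Sema6c the lowest RFP+ array was well above the highest GFP+ array. Sema6d, a ligand of Plxna1, came close to overlap, with 929, 902 and 1614 in the GFP+ arrays and 1695, 1791 and 2791 in the RFP+ arrays. In both groups replicate 3 was the highest. Sema6d was 1.83-fold higher in RFP+ neurons (adjusted p = 0.012), a call lost without GFP+ replicate 1 (adjusted p = 0.0593), GFP+ replicate 2 (0.0605) or RFP+ replicate 3 (0.0803). Sema6a, which binds Plxna2 and Plxna4, was the exception in the class: its arrays overlapped, at 656, 478 and 798 in the GFP+ arrays and 573, 517 and 467 in the RFP+ arrays (log2 difference 0.28, 95% interval -0.18 to 0.74, adjusted p = 0.356).

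Sema7a, the lipid-anchored member, promotes axon growth through integrins and also binds Plxnc1. Its intensity was 1166, 1273 and 1041 in the GFP+ arrays, against 3351, 3269 and 3157 in the RFP+ arrays. The groups were far apart and the RFP+ arrays nearly equal (2.79-fold higher in RFP+ neurons, log2 difference -1.48 ± 0.20, adjusted p = 7.14e-06).

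**Figure D2:**
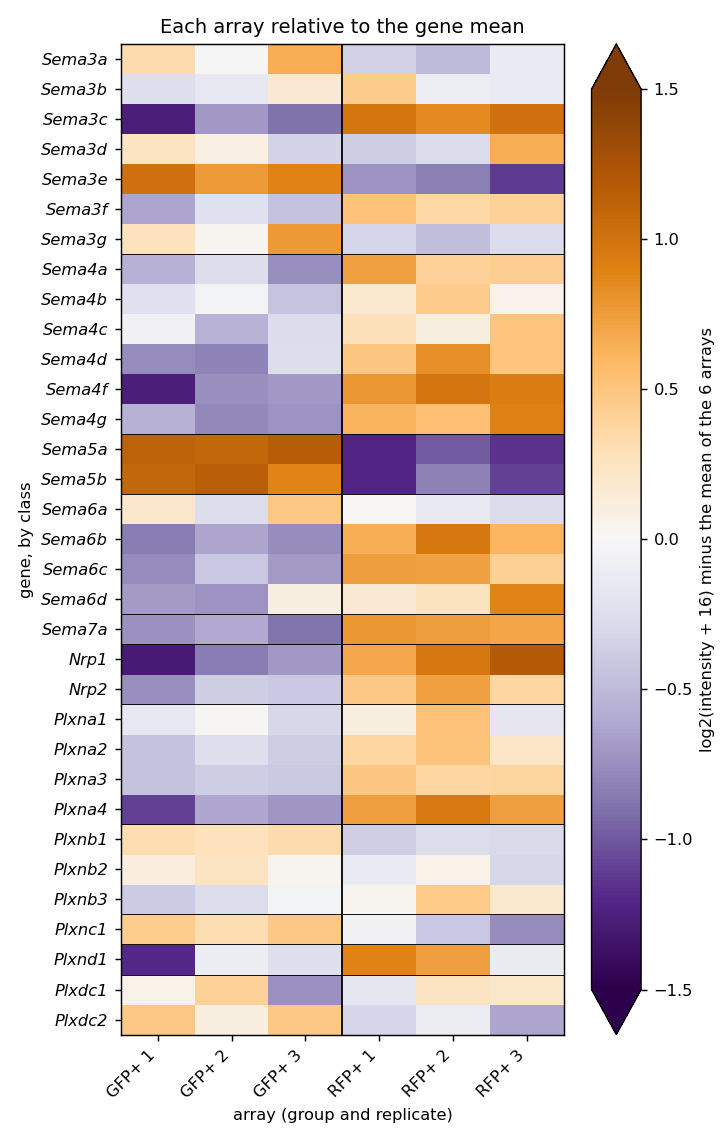
Each member (rows, by class) on each array (columns, GFP+ left of RFP+), as log2(intensity + 16) minus the gene's mean over the 6 arrays; orange is above and purple below that mean. Plxnd1 is lowest on GFP+ replicate 1, and Sema5a and Sema5b are even within each group.

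The neuropilins and the plexin A genes, which together form the receptors of class 3 semaphorins, were higher in neurons except Plxna1. Nrp1, the main binding partner of Sema3a, had 518, 718 and 792 in the GFP+ arrays, against 2091, 2554 and 2958 in the RFP+ arrays. Nrp2, which binds Sema3f, had 235, 306 and 298 in the GFP+ arrays, against 567, 676 and 525 in the RFP+ arrays. Neither gene's groups overlapped, and GFP+ replicate 1 was the lowest array for both. Nrp1 was 3.71-fold higher in RFP+ neurons (log2 difference -1.89 ± 0.22, adjusted p = 1.3e-06) and Nrp2 2.05-fold higher (-1.04 ± 0.21, adjusted p = 0.000618).

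Of the 4 plexin A genes, 3 were higher in RFP+ neurons. Plxna4, which transmits Sema3a signals with Nrp1, differed most, with 709, 994 and 931 in the GFP+ arrays, against 2565, 2979.6 and 2559.7 in the RFP+ arrays (3.06-fold higher in RFP+ neurons, log2 difference -1.61 ± 0.21, adjusted p = 4.46e-06). Plxna3, which pairs with Nrp2 in the Sema3f response, had 1782, 1879 and 1839 in the GFP+ arrays, against 3427, 3152 and 3196 in the RFP+ arrays (1.77-fold higher in RFP+ neurons, adjusted p = 0.00282). Plxna2, a receptor of Sema6a, had 2820.4, 3271 and 2963 in the GFP+ arrays, against 4993, 5518 and 4497 in the RFP+ arrays (1.65-fold higher in RFP+ neurons, adjusted p = 0.0091). The arrays of each of these 3 genes were apart by group. The Plxna2 call was lost without RFP+ replicate 2 (adjusted p = 0.0518). Plxna1, which also binds Sema6d, did not pass: 1504, 1695 and 1349.7 in the GFP+ arrays overlapped 1803, 2407 and 1487 in the RFP+ arrays (log2 difference -0.30, 95% interval -0.76 to 0.16).

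Plexins of the other types were divided. Plxnb1, the Sema4d receptor, was 1.52-fold higher in GFP+ progenitors, with 3058, 2962 and 3096 in the GFP+ arrays, against 1893, 2069.8 and 2012 in the RFP+ arrays (log2 difference 0.61 ± 0.19, adjusted p = 0.0232). Plxnc1, a receptor of Sema7a, was 1.76-fold higher in GFP+ progenitors, with 639, 584 and 658 in the GFP+ arrays, against 450.2, 348 and 271 in the RFP+ arrays (0.81 ± 0.22, adjusted p = 0.00676). These were the only receptors among the 11 plexins and neuropilins to pass on the GFP+ side, and neither passed without RFP+ replicate 3 (adjusted p = 0.0573 and 0.0527). Plxnb1 also missed the threshold without RFP+ replicate 1 (0.0943) or RFP+ replicate 2 (0.0555), so that 0 receptors were higher in GFP+ without RFP+ replicate 3 and 1 without RFP+ replicate 1 or 2. Plxnb2, which acts in neural progenitors and migrating cerebellar granule cells of the mouse, had 2526, 2745 and 2375 in the GFP+ arrays, overlapping 2133, 2426 and 1869 in the RFP+ arrays (log2 difference 0.25, 95% interval -0.17 to 0.68). Plxnb3 stayed under the olfactory receptor guide in both groups, with 92.0, 103 and 121 in the GFP+ arrays and 129, 178 and 144 in the RFP+ arrays (log2 difference -0.45, adjusted p = 0.106). With the replicate number as a random effect it passed (adjusted p = 0.0395).

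Plxnd1, the Sema3e receptor and a gene of vascular development, had 311, 679 and 620.3 in the GFP+ arrays, against 1369.8, 1217 and 671 in the RFP+ arrays. GFP+ replicate 1 was low, and RFP+ replicate 3 fell just under the highest GFP+ array, so the groups overlapped. It was 2.01-fold higher in RFP+ neurons (log2 difference -1.01 ± 0.29, adjusted p = 0.0111). This standard error was the largest among the members. Without GFP+ replicate 1 the log2 difference was -0.67 (adjusted p = 0.0844), and without RFP+ replicate 1 it was -0.81 (0.0662). Without both it was -0.47 (0.295). Beside these values, the summed endothelial markers were lowest among GFP+ arrays on replicate 1 (2605, against 6194 and 8173), where 11 of 12 of them had their lowest GFP+ value. Cdh5 read 137, 293 and 680.1 in the GFP+ arrays and 14.2, 64.3 and 66.7 in the RFP+ arrays. Summed markers of inhibitory neurons were 10747, 11868 and 10568 in the GFP+ arrays, against 10960, 7556 and 4785 in the RFP+ arrays. Those of Cajal-Retzius cells were 973, 1191 and 874 in the GFP+ arrays, against 4552, 4237 and 3217 in the RFP+ arrays. Summed neuronal markers were 24137, 28392 and 24937 in the GFP+ arrays, against 63356, 68785 and 63322 in the RFP+ arrays. The part of any of these cell types in the Plxnd1 values was not tested.

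The 2 plexin domain containing genes encode membrane proteins named for a plexin-like domain. Plxdc2 was 1.62-fold higher in GFP+ progenitors, with 266, 199.7 and 265 in the GFP+ arrays, against 146, 173 and 115 in the RFP+ arrays (log2 difference 0.70 ± 0.21, adjusted p = 0.0178). Its RFP+ mean was under the olfactory receptor guide. The call was lost without GFP+ replicate 1 (adjusted p = 0.0582), RFP+ replicate 1 (0.051) or RFP+ replicate 3 (0.0982). Plxdc1, first known from tumor endothelium, did not pass and lay under the guide in both groups, with 139, 181 and 72.9 in the GFP+ arrays and 115, 159 and 155 in the RFP+ arrays. Summed mural cell markers were 5828, 4473 and 6099 in the GFP+ arrays and 1180, 1187 and 1264 in the RFP+ arrays. Like Plxdc2, the mural and endothelial sums were higher in GFP+. The endothelial sums were 2605, 6194 and 8173 in the GFP+ arrays and 961, 1017 and 1228 in the RFP+ arrays. The part of either cell type in the Plxdc2 values was not tested.

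Values of ligands and of receptors they are known to bind can be set side by side. Of 16 such pairs, chosen from general knowledge after the values were seen, 6 had the semaphorin and the receptor higher in opposite groups, 3 had both higher in RFP+ neurons, and in 7 at least 1 gene did not pass. The pairs share genes and most members passed in 1 direction or the other, so these counts describe the pairs listed and were not tested. In 4 pairs the ligand was higher in GFP+ progenitors and the receptor in RFP+ neurons: Sema3a (0.64) with Nrp1 (-1.89), Sema3e (1.77) with Plxnd1 (-1.01), and Sema5a and Sema5b (2.24 and 2.08) with Plxna3 (-0.82), all as log2 differences. In 2 pairs the ligand was the neuronal gene: Sema4d (-1.20) with Plxnb1 (0.61) and Sema7a (-1.48) with Plxnc1 (0.81). Sema3c with Nrp1, Sema3f with Nrp2 and Sema6b with Plxna4 were the pairs in which both genes were higher in RFP+ neurons. Plxna1, which did not pass, is a further partner of Sema5a, Sema5b and Sema6d, as is Plxnb2 of Sema4c and Sema4g, while Sema6a did not pass and both its partners, Plxna2 and Plxna4, were higher in RFP+ neurons. Of the 6 opposite pairs, Sema3a, Plxnd1, Plxnb1 and Plxnc1 carry calls that leaving out 1 array ended, as given above, whereas Sema5a and Sema5b with Plxna3 passed without any 1 array (adjusted p up to 0.0198).

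**Figure D3:**
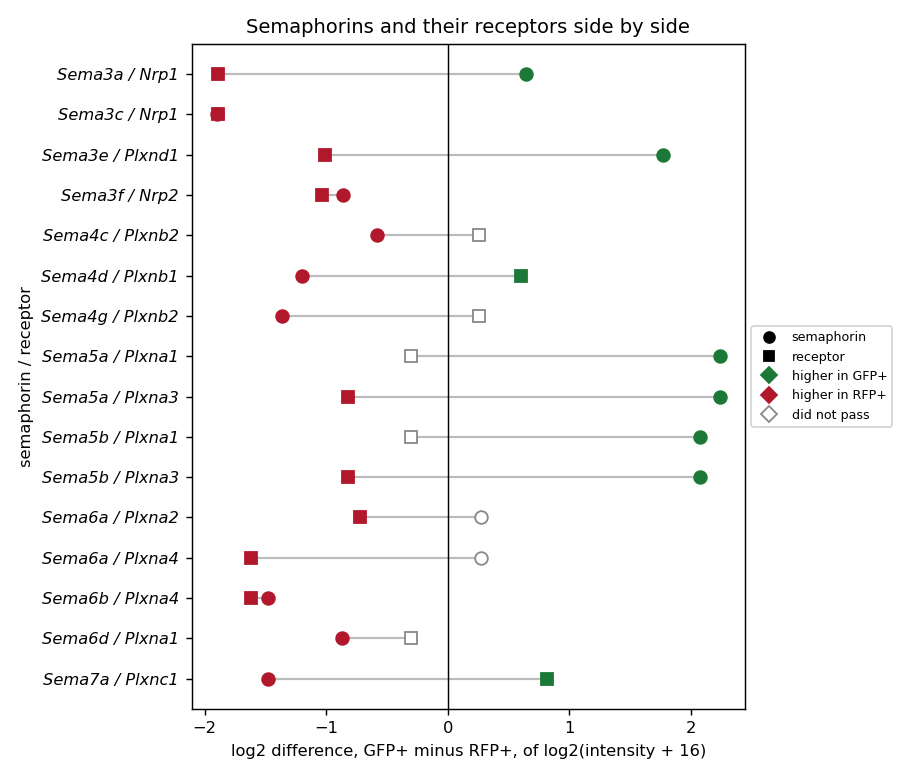
Log2 differences, GFP+ minus RFP+ (x axis), of the semaphorin (circle) and the receptor (square) of 16 known pairs (y axis); open symbols did not pass an adjusted p of 0.05. Lines that cross 0 between filled symbols join genes higher in opposite populations, as in 6 of the pairs.

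Among co-receptors and partners outside the family, genes of adhesion molecules and receptor kinases were found on both sides. Of 15 genes listed, 4 were higher in GFP+ progenitors, 7 were higher in RFP+ neurons and 4 did not pass (73.3% passed, median log2 difference -0.48). Over all genes 30% passed, 13.8% higher in GFP+ and 16.2% higher in RFP+ (median -0.08). L1cam, a partner of Nrp1 in the Sema3a response, had 812, 950.2 and 1092 in the GFP+ arrays, against 3205, 3824 and 3518 in the RFP+ arrays (3.67-fold higher in RFP+ neurons, adjusted p = 5.36e-07). Its relative Chl1 was 2.67-fold higher in RFP+ neurons and the contactin gene Cntn2 5.76-fold (log2 differences -1.42 and -2.53). Nrcam, an adhesion gene of the same family as L1cam, did not pass (log2 difference 0.24, adjusted p = 0.39). Erbb2, a kinase that joins B-type plexins, had 753, 795 and 599 in the GFP+ arrays, against 43.0, 83.2 and 64.4 in the RFP+ arrays (higher in GFP+ progenitors, adjusted p = 3.41e-09). Met and Mst1r, of the same role, passed as higher in RFP+ neurons but lay under the olfactory receptor guide in both groups, with means of 48.3 ± 15.9 in the GFP+ arrays and 124 ± 15.3 in the RFP+ arrays for Met and of 80.8 ± 15.5 in the GFP+ arrays and 178 ± 10.3 in the RFP+ arrays for Mst1r (SD, n = 3). Itga1, the alpha subunit of an integrin that binds Sema7a, had 524, 541 and 895 in the GFP+ arrays, against 19.1, 81.3 and 58.1 in the RFP+ arrays (higher in GFP+ progenitors, adjusted p = 4.38e-08). Kdr, a vascular receptor and an endothelial marker, averaged 663 ± 407 in the GFP+ arrays and 87.3 ± 42.6 in the RFP+ arrays (adjusted p = 2.84e-05). The RFP+ means of Erbb2, Itga1 and Kdr were under the olfactory receptor guide, and no fold is given for them. The folds given above for Sema3e, Sema4f, Sema4a and Plxdc2 also rest on a group mean under the guide and carry the same limit. Ptk7, a plexin partner, was 1.68-fold higher in GFP+ progenitors. The Kdr call was lost with an intensity trend and robust moderation (adjusted p = 0.0568).

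Cytoplasmic effectors of semaphorin signalling were mostly higher in neurons where they differed. Of 34 measured genes, 4 were higher in GFP+ progenitors, 14 were higher in RFP+ neurons and 16 did not pass (52.9% passed, median log2 difference -0.29). Beside this, 30% of all genes passed, 13.8% higher in GFP+ and 16.2% higher in RFP+ (median -0.08). Of the 5 collapsin response mediator genes, 3 were higher in RFP+ neurons, 1 (Dpysl4) was higher in GFP+ progenitors and 1 (Dpysl2) did not pass (log2 difference -0.43, adjusted p = 0.133). Dpysl3 had 3281, 3624 and 3148 in the GFP+ arrays, against 9079, 10114 and 10803 in the RFP+ arrays (2.97-fold higher in RFP+ neurons, adjusted p = 3.6e-06). Crmp1 and Dpysl5 were 2.96-fold and 2.08-fold higher in RFP+ neurons. Cdk5r1, the activator of the kinase Cdk5 that phosphorylates these proteins, was 2.62-fold higher there. Mical2, of the actin-oxidising Mical family, also passed on the RFP+ side, but under the olfactory receptor guide in both groups, with 67.3 ± 18.2 in the GFP+ arrays and 184 ± 3.40 in the RFP+ arrays (SD, n = 3). On the other side, Rras, a GTPase switched off by plexins, had 563, 587 and 437 in the GFP+ arrays, against 83.8, 64.7 and 51.3 in the RFP+ arrays (higher in GFP+ progenitors, adjusted p = 1.1e-08). Sh3bp1, a partner of Plxnd1 in the Sema3e response, averaged 348 ± 37.9 in the GFP+ arrays and 177 ± 11.5 in the RFP+ arrays (adjusted p = 0.00142). The RFP+ means of Rras and Sh3bp1 were under the olfactory receptor guide. Rnd3 and Dpysl4, the second of the collapsin response mediator family, were 1.64-fold and 1.48-fold higher in GFP+ progenitors. Rnd3 missed the threshold when GFP+ replicate 3 (adjusted p = 0.113), RFP+ replicate 1 (0.0581) or its replicate 2 (0.117) was left out, and with log2(intensity + 1) (0.0537). Dpysl4 missed it without GFP+ replicate 1 (0.141), GFP+ replicate 3 (0.0578), RFP+ replicate 1 (0.0956), RFP+ replicate 2 (0.0596) or RFP+ replicate 3 (0.169), with median centring (0.059), with log2(intensity + 1) (0.0635) and with array weights (0.0519). In each fit that left out GFP+ replicate 3 or either of RFP+ replicates 1 and 2, Rras and Sh3bp1 were the 2 effectors higher in GFP+ progenitors. With the replicate number as a block, Rhoa (adjusted p = 0.0409) and Rnd1 (0.0469) also passed on the GFP+ side, as did Itgb1 (0.0142) among the co-receptors and partners.

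**Figure D4:**
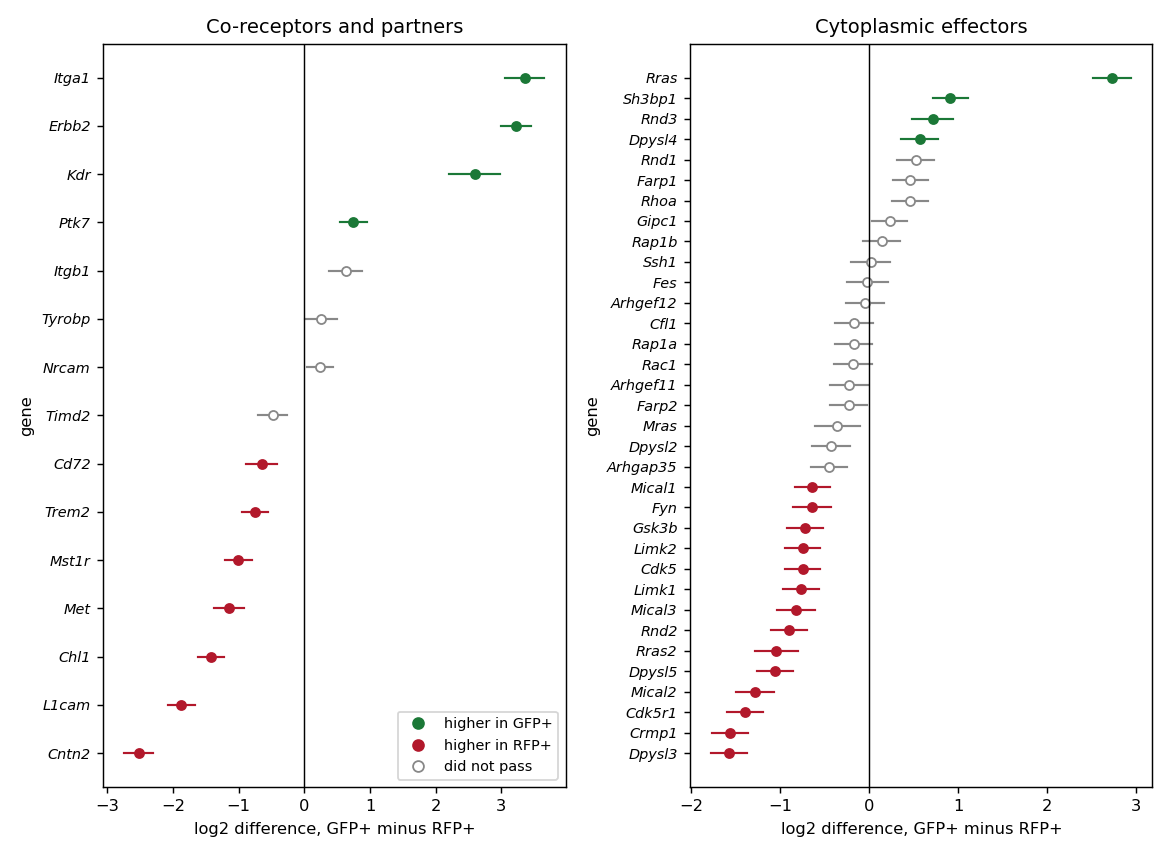
Log2 differences, GFP+ minus RFP+ (x axes), of 15 co-receptors and partners and 34 effectors of semaphorin signalling (y axes), with bars of 1 standard error; open points did not pass an adjusted p of 0.05. L1cam, Chl1, Cntn2, Dpysl3, Crmp1 and Dpysl5 lie on the RFP+ side, and Itga1, Erbb2, Kdr and Rras lie on the GFP+ side.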

How the data were processed

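The values analysed were probe set intensities as deposited by the authors on a linear scale, with 53 to 112 exact zeros an array. Affymetrix Expression Console is named in the submitters' processing notes; its version and how it corrected background and normalized are not given in the sources used here. Of 35557 probe sets, 21789 carried 1 gene symbol, 1621 several and 12147 were unnamed here. Current symbols were looked up in RefSeq (GRCm38.p6) by Entrez ID (21698 probe sets matched). The probe set with the highest mean was kept for each of 19938 genes.

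The two-sided test was that of limma 3.58.1 in R 4.3.3, on log2(intensity + 16), GFP+ minus RFP+, all 6 arrays, without a filter on dim genes, with Benjamini-Hochberg adjustment over all genes. The fit was tested on simulated data with noise drawn independently for each array. A pairing of the arrays was therefore not part of that test. The number of arrays, 3 a group, limits the precision (median standard error 0.215). Tables were made with pandas 2.3.3 and numpy 2.4.6 in Python 3.11.15, and figures with matplotlib 3.10.9. Fold changes of dim genes depend on the offset.

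Same-numbered GFP+ and RFP+ arrays deviated together from their group means across genes (r = 0.204, 0.288 and 0.361), against -0.266 to 0.00416 for different numbers. Each group was centred on its own mean, so the values for different numbers depend on those for the same number. The numbers were treated as a possible pairing of the samples. This pairing comes from the data, as no label says what the numbers stand for. The main fit left it out, and a replicate block was an alternative, beside other scalings, offsets, filters, variance models and left-out arrays.

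Members, co-receptor, effector and marker lists were chosen with earlier results of these data known. All members are named, and from the co-receptor and effector lists up to 5 genes each way (those that passed, with no overlap of the groups' arrays, by size of difference). The effector genes Rhod, Pak1 and Ptk2 were not analysed here.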

Additional observations from a re-analysis of the deposited data

How the results depend on the processing

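Under 18 alternatives the 25 members that passed kept their direction wherever they were tested, and 15 of them passed in each one run. With the replicate number as a fixed block, the calls that changed were those of Sema4b (adjusted p = 0.0403), Itgb1 (0.0142), Rnd1 (0.0469) and Rhoa (0.0409), which then passed, and no other call of a member or pathway gene changed with that block. As a random effect, Plxnb3, Timd2, Farp1 and Arhgap35 passed besides these 4. Without the dimmest 50% of genes, which takes dim members out before the test, 5 members and 3 semaphorins were higher in GFP+ and 3 co-receptor genes higher in RFP+; without the dimmest 30% it was 4 co-receptor genes. Of the effectors, 7 were higher in GFP+ with the block as a random effect, with log2(intensity + 64) and with an intensity trend, and 2 with log2(intensity + 1), against 4 in the test as reported. Leaving out 1 array or both arrays numbered 1 gave 4 to 8 members, 3 to 5 semaphorins, 0 to 2 receptors and 2 to 4 effectors higher in GFP+, and 7 to 14 effectors and 1848 to 3046 of all genes higher in RFP+. The log2 differences then ranged from -0.426 to 0.146 for Plxdc1, -0.282 to 0.111 for Sema3b and -0.305 to 0.327 for Sema3d, none of which passed. Sema3d was -0.0349 with median centring and -0.00712 with log2(intensity + 64). Without both arrays numbered 1, which leaves 2 a group, Sema3f missed the threshold (adjusted p = 0.0662), and Plxnd1 was -0.47 (0.295). Dim genes (Sema3d, Sema3g, Plxnb3 and Plxdc1 lay near background in both groups) limit what a difference can show.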
